A study of Mus musculus with 33 samples.

Results

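Transcripts of 9 genes are described here, all from genes that receive, adjust or carry out the WNT signal: the Frizzled receptor genes Fzd1 and Fzd4, the R-spondin receptor genes Lgr4 and Lgr5, the ubiquitin ligase genes Rnf43 and Znrf3, the R-spondin gene Rspo1, and the feedback and target genes Axin2 and Lef1. They were chosen by symbol, as the 9 rows of the 54347-row gene table that carry these names, and all 9 passed the filter on low counts in every comparison. The table holds 33 polyadenylated RNA libraries of mouse ovary in 9 groups. Experiment 1 has 3 libraries each of WT, Fshb(+/-) and Fshb(-/-) ovaries, which differ in the gene for the β subunit of follicle-stimulating hormone (FSH). Experiment 2 has 4 libraries of Fshb(-/-) ovaries and 4 of Fshb(-/-) HFSHB ovaries, called the rescue here, so both of its groups lack the mouse gene by label and 1 carries HFSHB. Experiment 3 covers stages DE, PE and E with 4 libraries at each, which usually stand for diestrus, proestrus and estrus, and holds 4 more given the stage KO (anestrus), whose genotype label reads WT like that of the others while the stage names a knockout. The promoter that drives HFSHB, the age of the mice and whether each library is a separate animal are not given in the labels, so the p-values measure the spread between these libraries, which may be technical in part.

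WNT proteins bind Frizzled receptors on the cell surface and stabilise β-catenin, which acts with TCF and LEF factors on target genes. Rnf43 and Znrf3 remove Frizzled receptors from the membrane, and R-spondins, bound to the Lgr receptors, hold these ligases back and so raise the response to WNT. Axin2 is a target gene whose protein promotes the breakdown of β-catenin, and in the mouse Rspo1 is known for its part in ovarian determination.

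Library totals ran from 13.6 to 16.9 M counts per library in experiment 1, from 19.6 to 23.7 M in experiment 2 and from 10.1 to 15.9 M in experiment 3. Levels are given as CPM, the counts of a gene relative to a library size that was scaled by the TMM method within an experiment, so they are compared only within an experiment. The targeted gene, Fshb, went against a simple reading of the labels: it had 0 to 1 counts in the WT libraries, 43 to 106 in Fshb(+/-) and 68 to 82 in Fshb(-/-), then 119 to 184 in the Fshb(-/-) and 221 to 431 in the rescue libraries of experiment 2. In experiment 3 it had 90 to 114 counts in KO (anestrus), 60 to 198 at DE, 0 to 51 at PE and 0 to 170 at E. The labels do not say which stretch of the gene was removed, so every group below is named as the libraries are labelled, and each direction holds for those labels. Markers of granulosa cells, luteal cells, theca and interstitial cells and oocytes each had counts in every group. Markers of oviduct epithelium set 8 libraries of experiment 3 apart: their summed level was 3219 to 7435 CPM in DE replicates 1, 2 and 4, in all 4 PE libraries and in E replicate 3, against 12.7 to 66.01 CPM in DE replicate 3, the other 3 E libraries and the KO (anestrus) libraries. The same 8 libraries, called oviduct-rich here, were also the higher ones in markers of ovarian surface epithelium (400.2 to 547 CPM against 192 to 319.6) and of smooth muscle (2638 to 5545 CPM against 952 to 2274), so the cell types behind a split by oviduct level cannot be told apart. In experiment 1 it was 1328 CPM in Fshb(+/-) replicate 3 and at most 58.2 CPM elsewhere, and in experiment 2 it was 11.8 to 544 CPM.

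The promoter windows of Fzd4, Lgr4 and Axin2 are shown because the first 2 genes rose and fell together in the comparisons below, while Axin2 went the other way in the rescue. They are RefSeq sequences on GRCm38.p6, from 250 bases before to 50 after the start taken for the window. For Fzd4 that start differs from the start of the gene given below. The CCAAT box (CCAAT) and the GC box (GGGCGG) are in capitals on either strand. The Fzd4 window is chr7:89404116-89404415 on the plus strand, that of Lgr4 is chr2:109917397-109917696 on the plus strand, and that of Axin2 is chr11:108920099-108920398 on the plus strand.
Fzd4: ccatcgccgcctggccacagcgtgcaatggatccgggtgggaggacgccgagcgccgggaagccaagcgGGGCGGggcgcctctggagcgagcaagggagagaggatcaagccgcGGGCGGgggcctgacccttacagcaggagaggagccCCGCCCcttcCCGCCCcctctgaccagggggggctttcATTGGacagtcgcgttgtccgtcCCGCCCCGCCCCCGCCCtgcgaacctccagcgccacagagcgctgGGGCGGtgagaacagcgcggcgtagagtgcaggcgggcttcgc
Lgr4: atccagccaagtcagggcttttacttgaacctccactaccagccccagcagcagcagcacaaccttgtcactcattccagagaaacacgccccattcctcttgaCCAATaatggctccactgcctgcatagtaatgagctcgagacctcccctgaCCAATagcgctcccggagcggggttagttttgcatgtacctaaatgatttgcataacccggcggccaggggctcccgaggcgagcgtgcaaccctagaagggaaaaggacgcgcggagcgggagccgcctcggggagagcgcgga
Axin2: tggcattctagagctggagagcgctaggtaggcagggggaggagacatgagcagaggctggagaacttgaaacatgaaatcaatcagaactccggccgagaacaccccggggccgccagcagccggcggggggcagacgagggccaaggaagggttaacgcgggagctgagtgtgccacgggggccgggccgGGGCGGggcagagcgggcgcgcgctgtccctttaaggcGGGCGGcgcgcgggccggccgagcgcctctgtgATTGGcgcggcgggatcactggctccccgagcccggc
The Fzd4 window held 8 GC boxes, some of them overlapping, and 1 CCAAT box, and 72.7% of its bases were G or C. The Lgr4 window held 2 CCAAT boxes and no GC box at 58.3% G or C, and the Axin2 window held 2 GC boxes and 1 CCAAT box. The median share of G or C was 52.7% over 32851 windows. Windows were matched for 7 of the 9 genes, 11 windows in all, and not for Znrf3 and Lgr5. The core bound by TCF and LEF factors (CTTTGAA or CTTTGAT, both strands) was in 0 of the 11 windows and in 8.65% of all windows. The core of the cyclic AMP response element (TGACG) was likewise in 0 of the 11 and in 20.8% of all windows, and the site of NR5A receptors (AAGGTCA) in 0 of the 11 and in 4.72%. A CCAAT box was in 3 of the 11 windows, of 3 genes, and in 37.4% of all windows, and a GC box was in 5 of the 11, of 3 genes, and in 35.7%. The Lef1 windows that start at 131110047 and 131110073 overlap and share the same GC box, so that site was counted in both. The last 4 motifs were chosen after the expression values were seen.

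Fzd4, Lgr4, Lgr5 and Rnf43 were lower in ovaries labelled Fshb(-/-) or KO (anestrus) than in most of the other groups. Fzd4 was past the threshold (an adjusted p of 0.05 over all genes tested, edgeR quasi-likelihood) in 6 of 6 comparisons with those ovaries, with a level between 1.86 and 2.51 times higher in the other group. Lgr4 and Lgr5 were past it in 5 and 4 of the 6, and Rnf43 in 5. Fzd1 was past it in 3 of the 6, and Znrf3 and Rspo1 in 2 each. Axin2 and Lef1 were never past it in the same direction. Several calls of genes other than Fzd4, among them those of Rnf43 at DE, PE and E, were lost under other settings, as given with each gene. The rest of the pathway did not move in one direction. Of the 13 other Frizzled and co-receptor genes, those called went more often the opposite way. At DE, PE and E these were the co-receptor genes Ror1, Lrp5 and Lrp6, and no Frizzled gene fell there. The target gene Cd44 was called the same way as Fzd4 in all 6 comparisons, as described at the end. In bulk tissue, fewer cells of a type and less RNA per cell cannot be told apart.

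Against WT, 2 of the 9 genes fell in Fshb(-/-) ovaries, Fzd4 and Rnf43, where 3.34% of all genes tested fell and 7.87% passed in either direction. For 7 of the 9 genes the 3 libraries of one group did not overlap those of the other, in either direction, where this held for 35.3% of all genes. Of these 7, Lef1 was higher in Fshb(-/-) and the others were lower. Against Fshb(+/-), 6 of the 9 fell in Fshb(-/-) ovaries, where 7.9% of all genes fell and 17.0% passed. In the rescue, 4 of the 9 rose against Fshb(-/-), where 15.8% of all genes rose, and Axin2 fell, where 16.2% fell and 31.9% passed in all. At DE, 5 of the 9 genes rose against KO (anestrus), where 13.5% of all genes rose and 25.1% passed. At PE 5 rose, where 17.5% of all genes rose and 33.8% passed, and at E 5 rose, where 8.98% of all genes rose and 18.0% passed. The median log2 fold change over the 9 genes was -0.49 in Fshb(-/-) against WT, -1.33 against Fshb(+/-), 0.22 in the rescue, and 0.71, 0.71 and 0.86 at DE, PE and E, while that over all genes lay between -0.02 and 0.01. The comparisons within experiment 1 share the Fshb(-/-) libraries and those of experiment 3 share the KO (anestrus) libraries, so they are not separate observations.

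**Figure D1:**
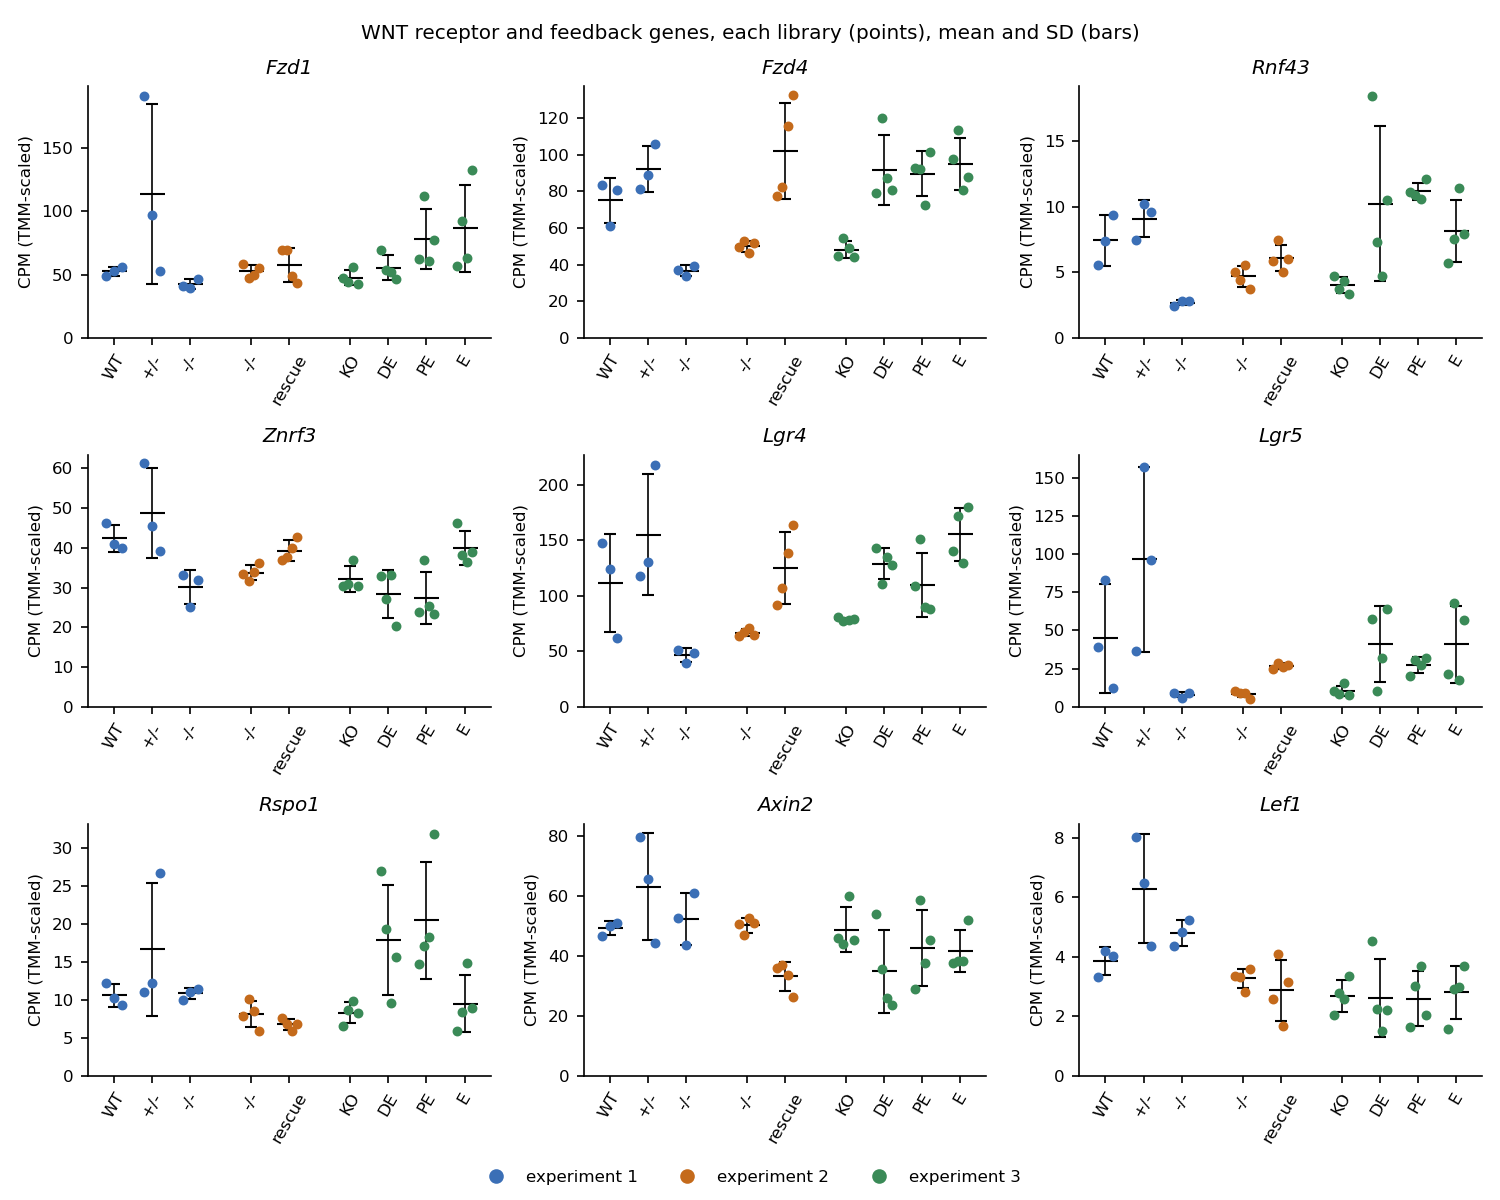
Level of each of the 9 genes in every library (points, CPM scaled by TMM), with the mean and SD of each group as bars and the 3 experiments side by side. Within experiment 1, Fzd4 lies at 33.6 to 39.4 CPM in Fshb(-/-) and at 61.04 to 106 CPM in the other libraries. It lies at 46.1 to 52.7 CPM in Fshb(-/-) and 77.6 to 133 CPM in the rescue of experiment 2. In experiment 3 it lies at 44.4 to 54.6 CPM in KO (anestrus) and 72.8 to 120 CPM at the stages. Axin2 and Lef1 show no such split.

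**Figure D2:**
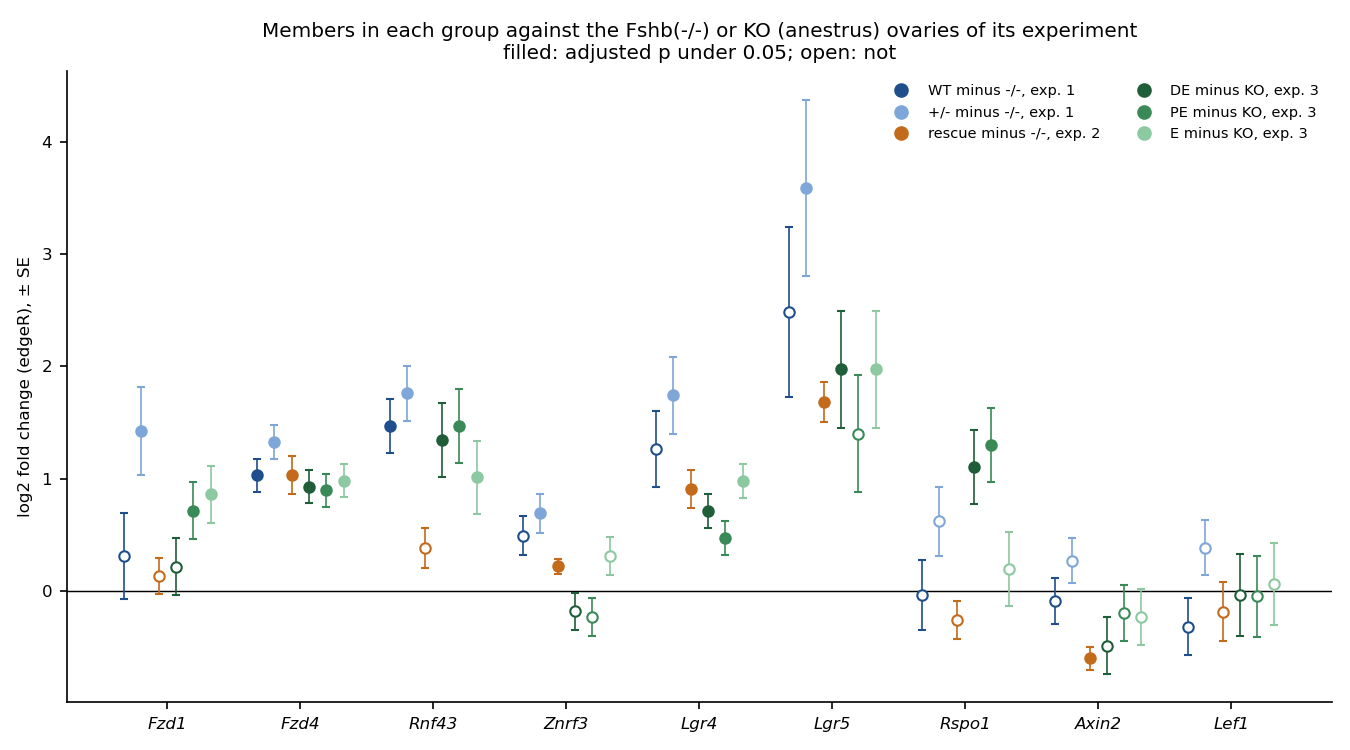
Log2 fold change (vertical axis, ± SE from edgeR) of each gene in WT, Fshb(+/-), rescue, DE, PE and E ovaries against the Fshb(-/-) or KO (anestrus) ovaries of the same experiment, filled where the adjusted p is under 0.05. Fzd4 is filled in all 6, and Axin2 is filled only in the rescue, at -0.60.

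Fzd4 (chromosome 7, 89404355 to 89413134, plus strand, GRCm38) encodes the Frizzled receptor known for its role in blood vessel growth. It was 83.4, 61.04 and 80.8 CPM in the 3 WT libraries, 81.5, 89.1 and 106 CPM in Fshb(+/-) and 37.2, 33.6 and 39.4 CPM in Fshb(-/-). Every Fshb(-/-) library was below every other library of the experiment. The fall was 1.03 ± 0.15 (SE) on the log2 scale against WT (adjusted p = 0.00499) and 1.33 ± 0.15 against Fshb(+/-) (adjusted p = 0.000925), 2.04 and 2.51 times lower. In experiment 2 the Fshb(-/-) libraries had 49.8, 52.7, 46.1 and 51.5 CPM and the rescue libraries 77.6, 82.7, 116 and 133 CPM, with no overlap. The rise in the rescue was 2.04-fold (log2 1.03 ± 0.17, adjusted p = 0.00305). In experiment 3 it was 44.8, 54.6, 49.0 and 44.4 CPM in KO (anestrus) and 79.0, 120, 87.2 and 80.8 CPM at DE. It was 92.7, 92.3, 72.8 and 101 CPM at PE and 97.7, 114, 80.8 and 88.1 CPM at E, and again no stage library reached down to a KO (anestrus) library. The rises were 1.90-fold at DE (adjusted p = 0.000863), 1.86-fold at PE (adjusted p = 0.000901) and 1.97-fold at E (adjusted p = 0.000508). All 6 calls were kept when any 1 library was left out. With the level of the oviduct markers as a covariate, the log2 rise was 0.98 at DE, 0.97 at PE and 0.98 at E (adjusted p = 0.00317, 0.0104 and 0.000365). All PE libraries were oviduct-rich and all KO (anestrus) libraries oviduct-poor. Here and below, values at PE under this covariate therefore rest mainly on how a gene varied with the oviduct level within DE and E.

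Markers of endothelium moved with Fzd4. All 10 markers had counts in every group, and their summed level was 626 to 713 CPM in WT, 654 to 715 in Fshb(+/-) and 391 to 462 in Fshb(-/-). It was 379 to 406 CPM in the Fshb(-/-) and 511 to 704 in the rescue libraries of experiment 2. In experiment 3 it was 379 to 430 CPM in KO (anestrus), 525 to 673 at DE, 492 to 597 at PE and 473 to 728 at E, so the groups low in Fzd4 were also low in these markers. Luteal markers were likewise lower, and oocyte markers higher, in every Fshb(-/-) or KO (anestrus) library than in every other library of its experiment. The part of any of these markers in the result was not tested.

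Fzd1 (chromosome 5, 4753839 to 4758035, minus strand) encodes another Frizzled receptor, and it behaved less evenly. It was 48.7, 52.5 and 56.4 CPM in WT, 192, 96.9 and 52.7 CPM in Fshb(+/-) and 41.3, 39.1 and 46.6 CPM in Fshb(-/-). The Fshb(+/-) libraries ranged from the level of WT to more than any other library of the experiment. The fall in Fshb(-/-) against Fshb(+/-) was 1.43 ± 0.39 on the log2 scale (adjusted p = 0.0406), and that against WT, 0.31 ± 0.39, was not past the threshold (adjusted p = 0.664). The first was 0.82 without Fshb(+/-) replicate 1, and it was not called without Fshb(+/-) replicate 2 (adjusted p = 0.0654) or Fshb(-/-) replicate 1, 2 or 3 (adjusted p = 0.12, 0.112 and 0.099). In experiment 2 it was 58.1, 47.4, 49.9 and 55.3 CPM in Fshb(-/-) and 69.2, 69.5, 48.6 and 43.5 CPM in the rescue. Those groups overlapped, and the log2 difference of 0.13 ± 0.16 was not past the threshold (adjusted p = 0.563).

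In experiment 3, Fzd1 was 47.6, 44.1, 55.9 and 42.8 CPM in KO (anestrus) and 69.8, 53.2, 51.8 and 46.6 CPM at DE, where the groups overlapped and the gene was not called (adjusted p = 0.56). It was 62.4, 112, 60.7 and 77.3 CPM at PE and 57.1, 92.4, 63.3 and 133 CPM at E, all above KO (anestrus). The rises were 1.64-fold at PE (log2 0.71 ± 0.25, adjusted p = 0.0426) and 1.82-fold at E (log2 0.86 ± 0.25, adjusted p = 0.0308). Neither call held against the loss of single libraries. The call at PE was lost without KO (anestrus) replicate 1, 2, 3 or 4 (adjusted p = 0.0712, 0.094, 0.0546 and 0.0848) and without PE replicate 2 or 4 (0.145 and 0.0726). That at E was lost without E replicate 2 or 4 (0.0668 and 0.0861) or KO (anestrus) replicate 1, 2 or 4 (0.0607, 0.0772 and 0.074).

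The share of Fzd4 in the Frizzled transcripts was also lower in the Fshb(-/-) and KO (anestrus) groups. Per kilobase of exon, the 10 Frizzled genes summed on average to 65.2 CPM per kb in WT, 75.8 in Fshb(+/-) and 54.3 in Fshb(-/-), to between 59.3 and 67.04 in the Fshb(-/-) and between 65.97 and 71.6 in the rescue libraries, and on average to 55.4, 68.8, 71.9 and 71.3 in KO (anestrus), DE, PE and E. Fzd4 made up 17.1% ± 2.34 (SD, n = 3) of that sum in WT, 18.8% ± 5.88 in Fshb(+/-) and 10.1% ± 0.562 in Fshb(-/-). It made up 11.7% ± 1.11 (SD, n = 4) in Fshb(-/-) and 22.2% ± 6.57 in the rescue. In experiment 3 the share was 12.96% ± 1.26 in KO (anestrus), 20.0% ± 4.08 at DE, 18.6% ± 1.78 at PE and 19.9% ± 3.10 at E. The share of Fzd1 showed no such split: it was 18.6% to 20.4% in the Fshb(-/-) and KO (anestrus) groups, 19.2% ± 1.15 in WT, 19.8% ± 3.90 in the rescue, 19.1% ± 1.48 at DE, 25.6% ± 5.66 at PE, 28.3% ± 8.48 at E and 33.9% ± 15.1 in Fshb(+/-).

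**Figure D3:**
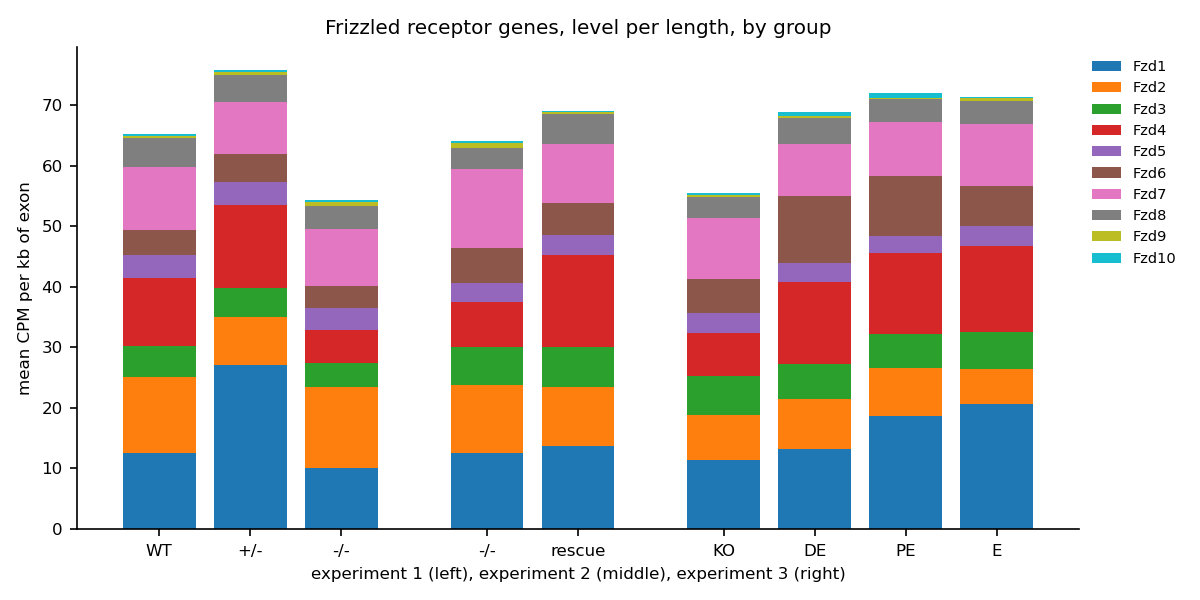
Mean level per kilobase of exon (vertical axis, CPM per kb) of the 10 Frizzled genes, stacked by group, with no error bars. The red layer, Fzd4, is 5.46 CPM per kb in Fshb(-/-) and 11.2 in WT of experiment 1, 7.44 in Fshb(-/-) and 15.2 in the rescue, and 7.17 in KO (anestrus) against 13.4 to 14.2 at the stages.

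Lgr4 (chromosome 2, 109917647 to 110014257, plus strand) encodes the broadly expressed R-spondin receptor. It was 148, 125 and 62.4 CPM in WT, 118, 130 and 218 CPM in Fshb(+/-) and 51.0, 39.4 and 48.7 CPM in Fshb(-/-). WT replicate 3 was the closest to Fshb(-/-), and the groups did not overlap. The fall against Fshb(+/-) was 3.35-fold (log2 -1.74 ± 0.34, adjusted p = 0.0119), and that against WT was -1.27 ± 0.34 on the log2 scale with an adjusted p of 0.0577. Without WT replicate 3 the latter was -1.55 (adjusted p = 0.0145), and in a fit of these groups alone its adjusted p was 0.0475. In experiment 2 the gene was 63.9, 67.2, 70.98 and 65.1 CPM in Fshb(-/-) and 92.0, 107, 139 and 164 CPM in the rescue, 1.88-fold higher with no overlap (log2 0.91 ± 0.17, adjusted p = 0.00514).

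In experiment 3, Lgr4 lay within 77.8 to 80.9 CPM in the 4 KO (anestrus) libraries. It was 143, 111, 135 and 128 CPM at DE, 109, 151, 90.0 and 88.4 CPM at PE and 141, 172, 130 and 180 CPM at E. Every stage library was above every KO (anestrus) library, with the closest at PE. The rises were 1.64-fold at DE (log2 0.71 ± 0.15, adjusted p = 0.00574), 1.39-fold at PE (log2 0.47 ± 0.15, adjusted p = 0.0283) and 1.97-fold at E (log2 0.98 ± 0.15, adjusted p = 0.000704). The call at PE was lost without PE replicate 2 (log2 0.28, adjusted p = 0.0911), KO (anestrus) replicate 2 (0.0617) or replicate 3 (0.0631). It was also lost with the oviduct level as a covariate (log2 0.62, adjusted p = 0.0826), under which the calls at DE and E were kept.

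Lgr5 (chromosome 10, 115450311 to 115587780, minus strand), the receptor known as a marker of epithelial stem cells, varied most of the 9 genes on the log2 scale around the mean of each experiment. It was 39.4, 83.2 and 12.2 CPM in WT, 36.3, 158 and 96.5 CPM in Fshb(+/-) and 9.15, 5.86 and 8.97 CPM in Fshb(-/-). The Fshb(-/-) libraries were below all the others, by little in the case of WT replicate 3. The fall against Fshb(+/-) was 12.05-fold (log2 -3.59 ± 0.78, adjusted p = 0.0203), and that against WT, -2.48 ± 0.76 on the log2 scale, had an adjusted p of 0.0904. Leaving out WT replicate 3 brought the latter to -2.93 (adjusted p = 0.0391). The call against Fshb(+/-) was lost without a filter on low counts (adjusted p = 0.0695), without Fshb(+/-) replicate 3 (0.0531) or Fshb(-/-) replicate 1, 2 or 3 (0.0694, 0.0628 and 0.0639). In experiment 2 it was 10.2, 8.90, 8.84 and 5.22 CPM in Fshb(-/-) and 24.5, 28.9, 25.9 and 27.1 CPM in the rescue. These narrow groups lay apart, 3.21-fold higher in the rescue (log2 1.68 ± 0.18, adjusted p = 0.000211), and the call was kept when any 1 library was left out.

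In experiment 3, Lgr5 was 10.2, 8.33, 15.3 and 7.91 CPM in KO (anestrus) and 57.8, 10.4, 31.8 and 64.3 CPM at DE. DE replicate 2 lay within the KO (anestrus) range, and the other 3 DE libraries lay above it. It was 20.2, 30.8, 27.3 and 32.0 CPM at PE and 21.7, 67.7, 17.4 and 56.7 CPM at E, all above KO (anestrus). The rises were 3.93-fold both at DE (log2 1.97 ± 0.52, adjusted p = 0.0168) and at E (log2 1.97 ± 0.52, adjusted p = 0.0188), and the difference at PE was 1.40 ± 0.52 on the log2 scale with an adjusted p of 0.0503 (0.000871 in a fit of PE and KO (anestrus) alone). The call at E was lost without E replicate 2 (0.0595) or KO (anestrus) replicate 2 or 4 (0.0559 and 0.0577). Among the oviduct-poor libraries the log2 difference was 1.64 at DE (adjusted p = 0.178, with 1 DE library) and 2.26 at E (adjusted p = 0.00914).

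Per kilobase of exon, Lgr4 was the more abundant receptor transcript in all 33 libraries. The ratio of Lgr5 to Lgr4 was 0.216 ± 0.146 (SD, n = 3) in WT, 0.375 ± 0.279 in Fshb(+/-) and 0.0980 ± 0.0110 in Fshb(-/-). It was 0.0711 ± 0.0188 (SD, n = 4) in Fshb(-/-) and 0.127 ± 0.0310 in the rescue, and 0.0757 ± 0.0249 in KO (anestrus) against 0.177 ± 0.104, 0.151 ± 0.0480 and 0.143 ± 0.0722 at DE, PE and E. Markers of luteal cells moved with both receptors. All 10 had counts in every group, and their summed level in WT replicates 1, 2 and 3 was 13966, 12848 and 4899 CPM, so that the WT library lowest in Lgr4 and Lgr5 was the lowest in these markers. It was 9257 to 19479 CPM in Fshb(+/-) and 2906 to 3426 in Fshb(-/-), 2878 to 3483 in Fshb(-/-) and 6583 to 21452 in the rescue, where Lgr4 was highest in the library highest in these markers but Lgr5 stayed between 24.5 and 28.9 CPM. The Fshb(+/-) library lowest in these markers had the highest Lgr5, at 158 CPM. In experiment 3 it was 2321 to 2983 CPM in KO (anestrus), 3627 to 9052 at DE, 3592 to 7357 at PE and 5085 to 17074 at E, and the PE library lowest in them had the highest Lgr5 at PE, 32.0 CPM. The luteal list includes Sfrp4, a WNT pathway gene described below. Markers of theca and interstitial cells had the same order as Lgr4 in rescue replicates 1 to 4, at 4747, 5056, 7626 and 8330 CPM. Of the WT libraries they were lowest in replicate 3, at 3176 CPM, below the 3448 to 4511 CPM of Fshb(-/-). At DE, PE and E their ranges overlapped that of KO (anestrus). The part of the luteal, theca and interstitial markers in the results was not tested.

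Rnf43 (chromosome 11, 87662722 to 87735539, plus strand) encodes a ligase that clears Frizzled receptors from the membrane. It was 5.51, 7.35 and 9.38 CPM in WT, 7.47, 10.2 and 9.56 CPM in Fshb(+/-) and 2.42, 2.78 and 2.83 CPM in Fshb(-/-). All Fshb(-/-) libraries lay below all others. The falls were 2.76-fold against WT (log2 -1.47 ± 0.24, adjusted p = 0.00932) and 3.39-fold against Fshb(+/-) (log2 -1.76 ± 0.24, adjusted p = 0.00225), and both calls were kept when any 1 library was left out. In experiment 2 it was 4.98, 4.39, 5.55 and 3.73 CPM in Fshb(-/-) and 5.87, 7.45, 4.98 and 6.02 CPM in the rescue. The groups overlapped, and the log2 difference of 0.38 ± 0.18 was not past the threshold (adjusted p = 0.132). The difference between the rescue against Fshb(-/-) and WT against Fshb(-/-) was -1.09 ± 0.28 on the log2 scale for Rnf43, with an unadjusted p of 0.00156 and an adjusted p of 0.23 in the edgeR fit over both experiments.

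In experiment 3, Rnf43 was 4.68, 3.70, 4.33 and 3.35 CPM in KO (anestrus), 18.4, 7.32, 4.73 and 10.5 CPM at DE, 11.1, 10.9, 10.6 and 12.1 CPM at PE and 5.70, 7.52, 11.4 and 7.87 CPM at E. The groups did not overlap with KO (anestrus), but DE replicate 3, the oviduct-poor DE library, was barely above it, and E replicate 3, the oviduct-rich E library, was the highest at E. The rises were 2.54-fold at DE (log2 1.34 ± 0.33, adjusted p = 0.0111), 2.77-fold at PE (log2 1.47 ± 0.33, adjusted p = 0.00516) and 2.02-fold at E (log2 1.01 ± 0.33, adjusted p = 0.0449). With the oviduct level as a covariate they were 0.65 at DE and 0.65 at PE on the log2 scale (adjusted p = 0.197 and 0.269) and 0.90 at E (adjusted p = 0.0171). Among the oviduct-poor libraries the value was 0.26 at DE (adjusted p = 0.705) and 0.83 at E (adjusted p = 0.014). The call at E with all libraries was lost without any 1 of E replicates 2, 3 and 4 (0.07, 0.111 and 0.073) or KO (anestrus) replicates 1 to 4 (0.0665, 0.101, 0.0839 and 0.111).

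Znrf3 (chromosome 11, 5276324 to 5444847, minus strand), the related ligase gene, moved less. It was 46.1, 41.0 and 39.9 CPM in WT, 61.3, 45.5 and 39.3 CPM in Fshb(+/-) and 33.3, 25.2 and 32.0 CPM in Fshb(-/-). The fall against Fshb(+/-) was 1.61-fold (log2 -0.69 ± 0.17, adjusted p = 0.0273), and the difference from WT was -0.49 ± 0.17 on the log2 scale (adjusted p = 0.121). The call against Fshb(+/-) was lost without Fshb(+/-) replicate 1 (0.0592) or Fshb(-/-) replicate 1, 2 or 3 (0.0598, 0.0853 and 0.0678). In the rescue it was 37.0, 37.6, 39.9 and 42.7 CPM against 33.4, 31.6, 33.9 and 36.3 CPM in Fshb(-/-), a rise of 1.16-fold without overlap (log2 0.22 ± 0.07, adjusted p = 0.0337). That call was lost without Fshb(-/-) replicate 1, 2 or 3 (0.0794, 0.0969 and 0.0723) or rescue replicate 3 or 4 (0.0815 and 0.0812). At DE, PE and E it was not past the threshold against KO (anestrus) (log2 -0.18, -0.23 and 0.31, adjusted p = 0.452, 0.3 and 0.205). Its levels there were 20.3 to 33.1 CPM at DE, 23.8, 37.0, 25.4 and 23.2 CPM at PE, 46.1, 38.1, 36.4 and 38.98 CPM at E and 30.4, 30.9, 37.0 and 30.4 CPM in KO (anestrus).

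Per kilobase of exon, Rnf43 was below Znrf3 in all 33 libraries. The ratio of Rnf43 to Znrf3 was 0.214 ± 0.0696 (SD, n = 3) in WT, 0.237 ± 0.0788 in Fshb(+/-) and 0.109 ± 0.0227 in Fshb(-/-), and 0.167 ± 0.0313 (SD, n = 4) and 0.187 ± 0.0380 in Fshb(-/-) and rescue. In experiment 3 it was 0.151 ± 0.0235 in KO (anestrus), 0.447 ± 0.238 at DE, 0.511 ± 0.116 at PE and 0.251 ± 0.0937 at E.

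Rspo1 (chromosome 4, 124986430 to 125009099, plus strand) encodes the secreted R-spondin that acts through the Lgr receptors, and in experiment 3 its level was higher in the oviduct-rich libraries. It was 12.2, 10.3 and 9.32 CPM in WT, 11.02, 12.2 and 26.8 CPM in Fshb(+/-) and 9.997, 11.1 and 11.49 CPM in Fshb(-/-). The library at 26.8 CPM was Fshb(+/-) replicate 3, the one high in oviduct markers and the highest of the experiment in smooth muscle markers, and no comparison of experiment 1 called the gene (adjusted p = 0.963 against WT and 0.198 against Fshb(+/-)). In experiment 2 it was 7.83, 10.1, 8.50 and 5.94 CPM in Fshb(-/-) and 7.60, 6.82, 5.87 and 6.78 CPM in the rescue, with no call (log2 -0.26 ± 0.17, adjusted p = 0.274). There the rescue library with 544 CPM of oviduct markers had 6.82 CPM of Rspo1, and that with 11.8 CPM had 7.60 CPM. Across experiment 3 it was 14.8 to 31.9 CPM in the 8 oviduct-rich libraries and 5.96 to 9.84 CPM in the 8 oviduct-poor ones, and the surface epithelium and smooth muscle markers split these libraries in the same way. By group it was 6.57, 8.62, 9.84 and 8.28 CPM in KO (anestrus) and 27.0, 19.3, 9.60 and 15.7 CPM at DE, where DE replicate 3 overlapped KO (anestrus). It was 14.8, 17.1, 18.3 and 31.9 CPM at PE, above all KO (anestrus) libraries, and 5.96, 8.41, 14.8 and 8.89 CPM at E.

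Rspo1 rose 2.15-fold at DE (log2 1.10 ± 0.33, adjusted p = 0.0275) and 2.46-fold at PE (log2 1.30 ± 0.33, adjusted p = 0.0103) against KO (anestrus), and not past the threshold at E (log2 0.19 ± 0.33, adjusted p = 0.716). With the oviduct level as a covariate the log2 values were 0.41 at DE (adjusted p = 0.393) and 0.43 at PE (adjusted p = 0.444), and DE replicate 3 alone differed by 0.24 from KO (anestrus) among the oviduct-poor libraries (adjusted p = 0.722). The call at DE was lost without DE replicate 1 or 2 (0.0832 and 0.056) or KO (anestrus) replicate 1, 2 or 4 (0.071, 0.0582 and 0.0572). All PE libraries were oviduct-rich and all KO (anestrus) libraries oviduct-poor, so at PE the stage and the oviduct level, with the surface epithelium and smooth muscle markers, cannot be told apart.

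**Figure D4:**
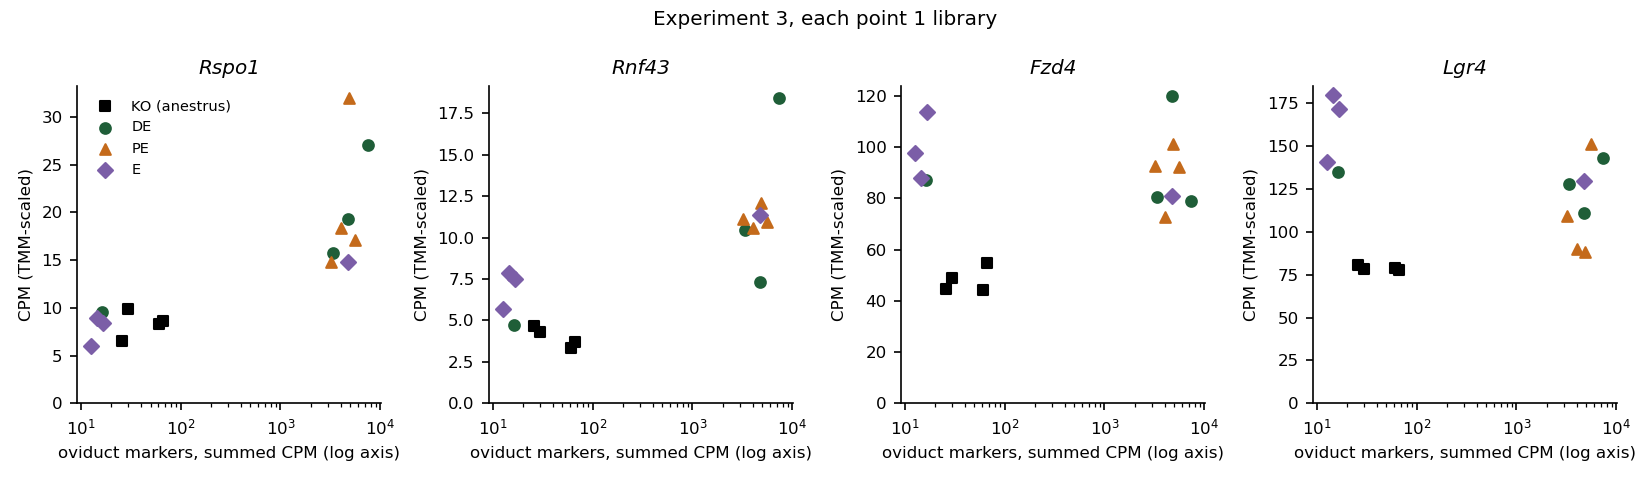
Level of Rspo1, Rnf43, Fzd4 and Lgr4 (vertical axes, CPM) against the summed level of 10 oviduct epithelium markers (horizontal log axis, CPM) in the 16 libraries of experiment 3, each point 1 library. Rspo1 is 14.8 to 31.9 CPM on the oviduct-rich side and 5.96 to 9.84 CPM on the oviduct-poor side, whereas Fzd4 is at 72.8 CPM or more in every stage library on both sides.

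Axin2 (chromosome 11, 108920349 to 108950783, plus strand), the feedback gene often read as a sign of β-catenin activity, gave no call in experiment 1. It was 46.6, 49.9 and 51.0 CPM in WT, 79.6, 65.6 and 44.1 CPM in Fshb(+/-) and 52.6, 43.5 and 60.8 CPM in Fshb(-/-). The groups overlapped, and the log2 difference of Fshb(-/-) was 0.09 ± 0.20 from WT and -0.27 ± 0.20 from Fshb(+/-) (adjusted p = 0.828 and 0.385). In experiment 2 it was 50.5, 46.8, 52.6 and 50.8 CPM in Fshb(-/-) and 35.9, 36.8, 33.7 and 26.1 CPM in the rescue, 1.51 times lower with no overlap (log2 -0.60 ± 0.10, adjusted p = 0.00247). That call was kept when any 1 library was left out. Libraries of experiment 3 had 45.9, 44.1, 59.8 and 45.2 CPM in KO (anestrus), 54.0, 35.8, 25.9 and 23.5 CPM at DE, 28.9, 58.5, 37.5 and 45.4 CPM at PE and 37.5, 38.3, 38.2 and 51.9 CPM at E. All 3 stages overlapped KO (anestrus), at log2 differences of -0.49, -0.20 and -0.23 (adjusted p = 0.168, 0.58 and 0.544). Without DE replicate 1 the difference at DE was -0.74 (adjusted p = 0.0384).

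Lef1 (chromosome 3, 131110471 to 131224356, plus strand) encodes a factor that carries β-catenin to DNA and was at a low level per kilobase of exon, with group means of 0.295 to 0.715 CPM per kb. It was 3.33, 4.20 and 4.04 CPM in WT, 8.02, 6.47 and 4.36 CPM in Fshb(+/-) and 4.36, 4.84 and 5.22 CPM in Fshb(-/-). It was 3.36, 3.31, 2.82 and 3.59 CPM in Fshb(-/-) and 2.56, 4.10, 1.68 and 3.14 CPM in the rescue, and in experiment 3 its libraries ranged from 1.501 to 4.52 CPM. No comparison called it, and the log2 differences were 0.32 ± 0.25 from WT (adjusted p = 0.468), -0.39 ± 0.25 from Fshb(+/-) (adjusted p = 0.311) and -0.19 ± 0.26 in the rescue (adjusted p = 0.623). The exons of Axin2 and Lef1 overlap the predicted genes Gm11670 and Gm43352 on the other strand, and the strand setting of the counting is not given in the sources used here, so the values of both are uncertain to that extent.

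The remaining comparisons called none of the 9 genes. In Fshb(+/-) against WT, edgeR called 0 of the 9, 2 of them had an unadjusted p under 0.05, DESeq2 called 0, and 0.0871% of all genes passed in edgeR. The differences there were 1.12 ± 0.39 on the log2 scale for Fzd1 and 0.70 ± 0.25 for Lef1 (adjusted p = 0.394 for each). Between the stages edgeR called 0.0% of all genes in each pair. PE against DE had 0 of the 9 genes at an unadjusted p under 0.05, E against PE had 3 and DE against E had 3, and DESeq2 called 0 of the 9 in each. In E against PE these were Znrf3 (log2 0.54 ± 0.17), Lgr4 (0.50 ± 0.15) and Rspo1 (-1.11 ± 0.33), each with an adjusted p of 0.199. Without E replicate 3, the oviduct-rich library, the adjusted p was 0.0312 for Lgr4 and 0.017 for Rspo1, and without PE replicate 2 it was 0.0323 for Znrf3 and 0.0174 for Lgr4. In DE against E they were Fzd1 (log2 -0.64 ± 0.25, adjusted p = 0.451), Znrf3 (-0.49 ± 0.17, adjusted p = 0.445) and Rspo1 (0.91 ± 0.33, adjusted p = 0.451), and Rspo1 had an adjusted p of 0.0479 without E replicate 3.

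The rescue against Fshb(-/-) was set against WT against Fshb(-/-) in one fit over experiments 1 and 2, to ask whether HFSHB left the genes at another distance from Fshb(-/-) than WT. The edgeR fit called 0 of the 9 genes, 2 of them had an unadjusted p under 0.05 (Rnf43 and Axin2), DESeq2 called 0, and 0.153% of all genes passed in edgeR. The difference was -0.01 ± 0.23 on the log2 scale for Fzd4, -0.37 ± 0.39 for Lgr4, -0.81 ± 0.76 for Lgr5 and -0.52 ± 0.23 for Axin2 (adjusted p = 1.0, 0.918, 0.901 and 0.737). The labels number them as separate experiments and do not say whether they were sequenced together, and both are tied only through their own Fshb(-/-) libraries.

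The genes most like each of the 9 were sought over the 33 libraries, as the smallest root mean square difference of log2(CPM + 1) around the mean of each experiment, among 13895 genes. The closest to Fzd4 was Pecam1, an endothelial adhesion molecule, at 0.19, where Fzd4 itself varied by 0.50 around its means. Shank3 (0.20) and Fam19a5 (0.21) followed. The closest to Lgr4 were Aplp2 (0.18) and Zfhx2 (0.21), where Lgr4 varied by 0.56, and those to Lgr5 were Lgmn, a lysosomal protease (0.40), Mbp (0.49) and Apol7e (0.52), where Lgr5 varied by 1.14. The closest to Rspo1 was Ccdc114, a part of the docking complex of ciliary dynein (0.21), then Plekhh2 (0.23) and Sort1 (0.24), where Rspo1 varied by 0.50. The closest to Rnf43 was Mfsd6 (0.24, against 0.56 for Rnf43 itself), to Fzd1 Il1rl2 (0.23, against 0.49), to Znrf3 Brpf3 (0.13, against 0.28), to Axin2 Tshz2 (0.19, against 0.34) and to Lef1 Steap3 (0.23, against 0.31). All of these values share the same libraries and their cell makeup.

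Among 86 other genes of the WNT pathway, the secreted and membrane antagonists that passed the threshold moved mostly in the direction of Fzd4 and Lgr4. No test compared the lists with each other. Of the 10 antagonist genes tested, 7 fell in Fshb(-/-) against Fshb(+/-) and 0 rose, 6 rose and 1 fell in the rescue, and 8, 9 and 5 rose at DE, PE and E with 0 falling. Against WT, only Dkk3 fell in Fshb(-/-) (log2 -0.77 ± 0.18, adjusted p = 0.0328), a call lost without WT replicate 1, 2 or 3 (0.0632, 0.0665 and 0.0817) or Fshb(-/-) replicate 1 or 3 (0.122 and 0.118). Trabd2b, Notum and Apcdd1 were called at DE and PE but not at E, and Apcdd1 was the antagonist that fell in the rescue. At DE, Notum and Apcdd1 overlapped KO (anestrus). Most DE and all PE libraries were oviduct-rich, and most E libraries were not. The antagonists were not counted with the oviduct level as a covariate. Sfrp4, a secreted Frizzled-related protein that binds WNT, had means of 9.32 CPM in Fshb(-/-) and 1731 CPM in the rescue (log2 7.54 ± 0.69, adjusted p = 0.000376). In experiment 3 its means were 5.18 CPM in KO (anestrus) and 672, 375 and 793 CPM at DE, PE and E. In experiment 1 they were 52.3 CPM in Fshb(-/-) and 1783 CPM in Fshb(+/-). The call of that fall (log2 -5.09 ± 1.45, adjusted p = 0.0493) was lost without any 1 library (0.0569 to 0.14). Sfrp2, of the same family, rose at all 3 stages against KO (anestrus) (log2 4.88, 5.63 and 5.22, adjusted p = 0.000512, 0.000173 and 0.000279). With DE replicate 3 as the only DE library, in the oviduct-poor set, its value was 5.28 (adjusted p = 0.075). Dkk2, an inhibitor of the Lrp co-receptors, rose 2.03 ± 0.36 on the log2 scale in the rescue (adjusted p = 0.00296).

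Over all 86 genes, of which 70, 68 and 71 were tested in experiments 1, 2 and 3, 1 rose and 5 fell in Fshb(-/-) against WT, and 6 rose and 16 fell against Fshb(+/-). In the rescue 13 rose and 16 fell, at DE 18 rose and 10 fell, at PE 23 rose and 13 fell, and at E 13 rose and 7 fell. None was called in Fshb(+/-) against WT, between stages or between experiments in edgeR. The median log2 fold change of the tested genes lay between -0.13 and 0.10 in these comparisons with Fshb(-/-) or KO (anestrus). Over all genes, the share called in either direction was 7.87% in Fshb(-/-) against WT and 17.0% against Fshb(+/-). It was 31.9% in the rescue and 25.1%, 33.8% and 18.0% at DE, PE and E. The same shares stand beside the counts by list.

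The WNT ligand gene Wnt10b had the largest fold change of the 86 genes in each of the 6 comparisons with Fshb(-/-) or KO (anestrus). Its mean was 82.0 CPM in WT, 162 CPM in Fshb(+/-) and 0.636 CPM in Fshb(-/-), then 0.0695 CPM in Fshb(-/-) and 93.2 CPM in the rescue, and 0.0794 CPM in KO (anestrus) against 79.5, 37.8 and 80.6 CPM at DE, PE and E. It was called in all 6, and its lowest WT library was at 1.54 CPM. The call against WT (log2 -6.97 ± 1.53, adjusted p = 0.0356) was lost without WT replicate 1 or 2 (0.0857 and 0.087) or Fshb(-/-) replicate 1, 2 or 3 (0.123, 0.1 and 0.101), and that against Fshb(+/-) (adjusted p = 0.0135) without Fshb(-/-) replicate 1 (0.0601). Wnt16, another ligand gene, rose at DE and PE (log2 5.23 and 5.73), but with the oviduct level as a covariate the values were 1.35 and 1.66 (adjusted p = 0.228 and 0.158). Wnt5a, a ligand of the β-catenin-independent branch, fell in Fshb(-/-) by 1.05 on the log2 scale against Fshb(+/-) (adjusted p = 0.00242) and rose by 0.61 in the rescue (adjusted p = 0.00106).

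Of the 8 other feedback and common target genes tested, 2 fell in Fshb(-/-) against WT and 3 against Fshb(+/-), 1 rose and 2 fell in the rescue, 3 rose at DE, 3 rose and 1 fell at PE, and 2 rose at E. Cd44, a cell surface receptor for hyaluronan, was called in all 6, in the direction of Fzd4. Its means were 28.7 CPM in WT, 24.9 in Fshb(+/-) and 11.3 in Fshb(-/-), 10.8 in Fshb(-/-) and 28.5 in the rescue, and 13.4 in KO (anestrus) against 46.1, 49.3 and 33.2 at DE, PE and E. The fall against WT was 1.34 ± 0.16 on the log2 scale (adjusted p = 0.00255) and the rise in the rescue 1.40 ± 0.28 (adjusted p = 0.00778), and the calls of experiments 1 and 2 were kept when any 1 library was left out. With the oviduct level as a covariate the rises were 1.01 at DE (adjusted p = 0.0497), 0.92 at PE (0.126) and 1.15 at E (0.00652). The call at E was lost without E replicate 3 or 4 (0.0745 and 0.0664) or KO (anestrus) replicate 1, 2 or 3 (0.0648, 0.0504 and 0.086), and among the oviduct-poor libraries the calls at DE and E were lost (0.504 and 0.0751). Tnfrsf19, a receptor of the tumour necrosis factor family, was called in the same direction in 5 of the 6. Its call against WT (log2 -0.68, adjusted p = 0.04) was lost without any 1 library (0.0557 to 0.136), and its rises at DE and PE were not called with the oviduct level as a covariate (0.407 and 0.205). Nkd1, an inhibitor of Dishevelled that WNT signalling induces, and Sp5, a transcription factor gene induced by β-catenin, fell in the rescue like Axin2, by 0.51 ± 0.08 and 1.02 ± 0.23 on the log2 scale (adjusted p = 0.00191 and 0.0101).

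Some pathway genes went against Fzd4 and Lgr4. Rspo2, a second R-spondin, was 16.6 to 22.7 CPM in Fshb(-/-) and 8.85 to 11.8 CPM in WT, a rise of 1.03 ± 0.23 on the log2 scale (adjusted p = 0.0323) that was lost without any 1 library (adjusted p = 0.0542 to 0.111). Against Fshb(+/-) the rise in Fshb(-/-) was 1.19 ± 0.24 (adjusted p = 0.011), a call kept when any 1 library was left out. Rspo2 fell by 0.80 in the rescue (adjusted p = 0.000958), and by 1.51 at DE and 1.60 at PE against KO (anestrus) (adjusted p = 0.0131 and 0.0075). The last 2 became -1.23 and -1.08 with the oviduct level as a covariate (0.0526 and 0.16). Wnt6, a ligand gene, fell by 1.15 ± 0.14 on the log2 scale in the rescue (adjusted p = 0.000564). Of the 13 other Frizzled and co-receptor genes, 0 were called against WT, 2 rose in Fshb(-/-) against Fshb(+/-), 1 rose and 6 fell in the rescue, and 3 fell at each of DE, PE and E, with 1 rising at PE. Those that fell at the stages were Ror1, Lrp5 and Lrp6 each time, and none was a Frizzled gene. The gene that rose at PE, Fzd10, was among those that fell in the rescue. Of all genes, 25.1%, 33.8% and 18.0% were called in either direction at DE, PE and E. Among the 3 other TCF genes, Tcf7l1, Tcf7l2 and Tcf7, 3 rose in Fshb(-/-) against Fshb(+/-), 0 were called against WT, 1 fell in the rescue, and 1, 2 and 2 fell at DE, PE and E.

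**Figure D5:**
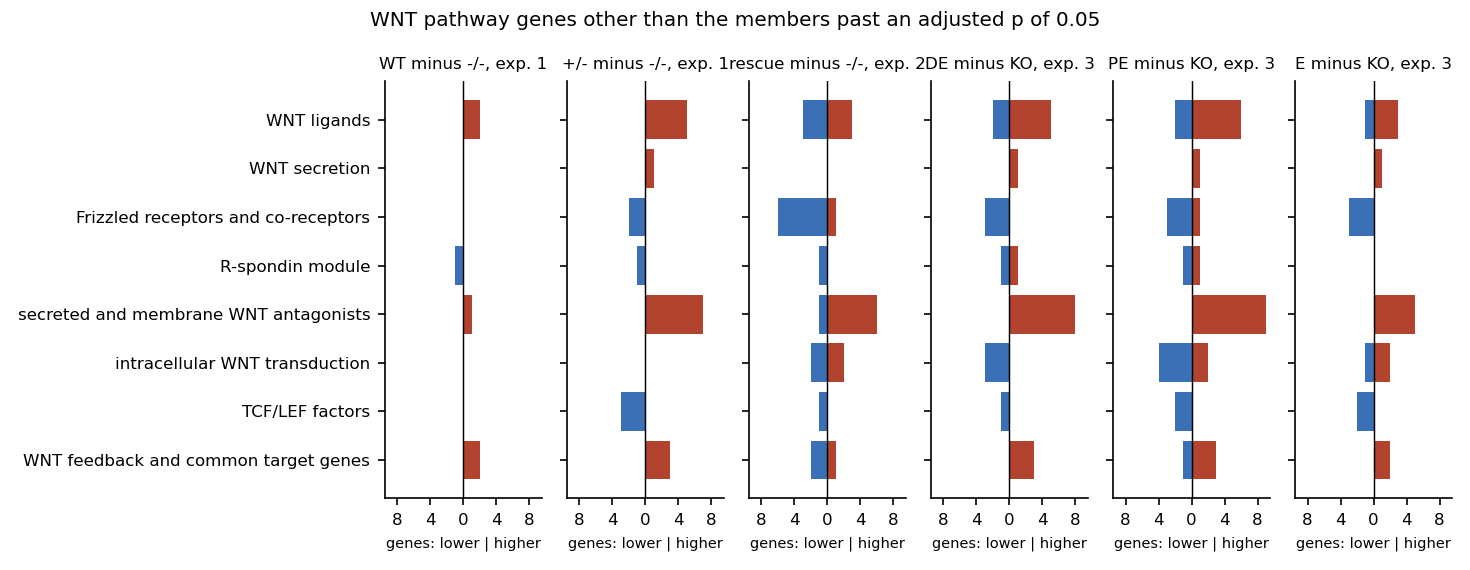
Number of WNT pathway genes other than the 9 that were higher (red, to the right) or lower (blue, to the left) at an adjusted p under 0.05 in 6 comparisons with Fshb(-/-) or KO (anestrus) ovaries, by list. The antagonist list has 1, 7, 6, 8, 9 and 5 genes higher, in the order of the panels, and the Frizzled and co-receptor list has 6 lower in the rescue.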

How the data were processed

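RNA was measured in 33 mouse ovary libraries of 9 groups. Values are gene-level estimated counts, as the authors deposited them in 1 table of 54347 rows, and 10.5% to 20.1% of those in a library were not whole. The submitters' processing notes name Salmon, DESeq2 and GRCm38, with no versions, annotation or strand setting. Counts were rounded to whole numbers. Rows were named from GENCODE on GRCm38, and the 253 rows without a symbol held 0.00553% of the counts. Libraries were grouped by the genotype and stage labels.

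Tests used edgeR 4.0.16 (R 4.3.3), with a separate model for each experiment (TMM, filterByExpr, robust glmQLFit, glmQLFTest), with p-values adjusted by Benjamini-Hochberg over all 17223, 16871 and 16944 genes tested and a threshold of 0.05. The fit over experiments 1 and 2 tested 18255 genes. All adjusted p-values in the text come from edgeR unless DESeq2 (1.42.0) is named. CPM use TMM-scaled library sizes, and levels per kilobase use the union of exons. Where a library has 0 counts, up to 3 are possible, by counting error alone. The fitting was tested on simulated data.

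The 9 genes and the pathway and marker lists were chosen with earlier results of these data known. All 9 are named in every comparison, and of the other listed genes, those named are drawn from the up to 4 with the largest fold change in each direction among the calls of a comparison, or stand for a count of 5 or fewer; Wnt5a, Dkk2, Cd44, Tnfrsf19, Nkd1 and Sp5 were in places chosen after their values were seen. Alternatives were DESeq2, its size factors, no filter on low counts, the replicate number as a block, only the groups compared, each library left out in turn, and settings on the oviduct level. Libraries of the same group differed by more than sampling noise (chi-square over degrees of freedom from 5.65 to 73.6) and each is 1 sample. Protein sequences were not used here.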

Additional observations from a re-analysis of the deposited data

Results flagged for a closer look

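Over 54 sets of 4 libraries, each 1 gene in 1 group, 4 had a library further from the others than Dixon's test allows at 95%. Chance flags about 1 set in 20. In KO (anestrus) replicate 3, Znrf3 was 37.0 CPM, where the other 3 libraries had 30.4 to 30.9 CPM, and Axin2 was 59.8 CPM, where the others had 44.1 to 45.9 CPM. In PE replicate 2, Znrf3 was 37.0 CPM, where the others had 23.2 to 25.4 CPM. In E replicate 4, Axin2 was 51.9 CPM, where the others had 37.5 to 38.3 CPM.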

How the results depend on the processing

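With each library left out in turn, between 2 and 4 of the 9 genes were called in Fshb(-/-) against WT (456 to 1031 of all genes), 0 in Fshb(+/-) against WT (9 to 14 genes), 3 to 5 in Fshb(-/-) against Fshb(+/-) (1362 to 2581 genes) and 4 to 5 in the rescue (3935 to 5613 genes). It was 4 to 5 at DE (2422 to 5787 genes), 3 to 5 at PE (3930 to 5000 genes) and 2 to 5 at E (1920 to 2779 genes) against KO (anestrus). Between stages it was 0 in PE against DE (0 genes), 0 to 2 in E against PE (0 to 1847 genes) and 0 to 1 in DE against E (0 to 1039 genes), and it was 0 between the experiments (18 to 30 genes). Some differences between stages changed sign and moved by more than their SE when 1 library was left out. They were Fzd4 in PE against DE (from -0.095 to 0.13), Lef1 in PE against DE (-0.23 to 0.40), Fzd1 in E against PE (-0.14 to 0.37) and Rnf43 in DE against E (-0.12 to 0.59). Smaller changes of sign are not listed.

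DESeq2 called 4 of the 9 genes and 2419 in all in Fshb(-/-) against WT, adding Lgr4 (adjusted p = 0.00171) and Lgr5 (0.0122), and added Lgr5 at PE (0.0133). It called 341 genes in Fshb(+/-) against WT, 344 in E against PE, 10 in DE against E and 134 between the experiments. Without a filter on low counts, 2 of the 9 genes were called at E, where Fzd1 (0.0641), Rnf43 (0.057) and Lgr5 (0.0508) were lost. That setting also ended the calls of Fzd1 (0.123) and Lgr5 (0.0695) against Fshb(+/-), Fzd1 at PE (0.0869) and Znrf3 in the rescue (0.0531). With only the groups compared in a fit, Fzd1 (0.0832) and Znrf3 (0.0504) were lost against Fshb(+/-), and Lgr4 against WT (0.0475), Lgr5 at PE (0.000871) and Znrf3 at E (0.0303) were gained. Lgr4 against WT was also gained without the oviduct-rich Fshb(+/-) library (0.0328). The replicate numbers do not pair the libraries: deviations of same-numbered libraries correlated at medians of -0.03, -0.08 and -0.01 in experiments 1, 2 and 3, and 2 of 9, 1 of 8 and 3 of 16 libraries correlated best with their own number. With the replicate number as a block, 7 genes were called in Fshb(+/-) against WT, 2 of the 9 at E against KO (anestrus), and 15 between the experiments. It also ended the calls of Fzd1 against Fshb(+/-) (adjusted p = 0.0859), at PE (0.078) and at E (0.0658), of Rnf43 (0.0678) and Lgr5 (0.053) at E, and of Rspo1 at DE (0.0502).

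Without DE replicate 3 and E replicate 3, the libraries apart from their stage in oviduct level, 3 of the 9 genes and 2656 in all were called in E against PE, and 2 and 2750 in DE against E, and Lgr5 was gained at PE (0.0384). The next 3 settings were chosen after seeing the data. With the oviduct level as a covariate, 3 of the 9 genes and 1859 in all were called at DE, 1 and 1163 at PE, 2 genes in E against PE and 4 in DE against E, and Rnf43 turned to 0.25 in E against PE and -0.25 in DE against E. With the oviduct-poor libraries alone, 2 of the 9 genes and 902 in all were called at DE and 4947 genes at E. There Znrf3 was 0.068, Ccnd1 -0.015 and Wnt16 -0.83 at DE, and Rnf43 was -0.57 and Lgr5 -0.62 in DE against E. With the oviduct-rich libraries alone, 8 genes were called in E against PE and 5 in DE against E. There Fzd1 was -0.29, Fzd4 -0.14, Rnf43 0.043 and Lgr5 -0.64 in E against PE, and Fzd4 was 0.19 in DE against E. DE or E is 1 library in the last 2 settings, whose spread is taken from the other groups. Apart from what each setting changes by construction, the cause of these changes was not tested. Fzd4 was called in all 6 comparisons with Fshb(-/-) or KO (anestrus) under every setting that could be fitted. Depth limits Lef1 and Rnf43 most, with group means down to 2.59 and 2.68 CPM.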
